A study of Mus musculus with 28 samples.

Results

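The plasma proteins of blood clotting and of complement are for the most part made and secreted by hepatocytes. The genes described here are 38 mouse genes of both systems, 21 of coagulation and 17 of complement, taken by name. Every array probe whose RefSeq accession maps to one of them was collected, which gave 49 of the 55681 distinct probes. All 38 genes had a probe, and 10 had several. Where a gene had several, the probe with the highest mean one-colour signal stands for it, and the 11 other probes are given where they disagree. Differences below are log2 values, phenobarbital minus control, and "passed" means an adjusted p under 0.05 in limma with Benjamini-Hochberg adjustment over all genes tested in that comparison.

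Coagulation factors are mostly zymogens of serine proteases that activate one another in sequence. The cascade ends in thrombin, which cuts fibrinogen, a protein of 3 chains (alpha, beta and gamma, encoded by Fga, Fgb and Fgg), to fibrin, and plasmin later dissolves the clot. Complement is a parallel cascade of innate immunity in which the lectin, classical and alternative pathways meet at C3 and lead to the membrane attack complex. C3 and the fibrinogen chains are also known as acute phase genes, whose transcription in the liver rises in inflammation.

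The livers came from male B6C3F1 mice, labelled 42 days of age, and had been kept as formalin-fixed, paraffin-embedded blocks for 16 years. Of these mice, 3 had received phenobarbital, known to act on hepatocytes through CAR (the constitutive androstane receptor), at 0.05% in drinking water for about 4 weeks, and 3 controls had received water alone. Whole liver RNA was amplified as cDNA and measured in 4 sets that hold the same 6 mice. Of the 1-colour design, 6 arrays took a 1X and 6 a 1.5X input of cDNA; of the 2-colour design, 8 took each input. No mutant or transgenic animal was used. Nothing in the labels states whether the blocks were sampled more than once, so the p-values measure the spread between these 6 mice as sampled.

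The sets differed in how much of the array could be read. The share of probes well above background ran from 44.2 to 51.9% per array in the one-colour 1X set and from 28.1 to 38.6% at 1.5X. The Cy5 channel of the two-colour arrays reached 14.8 to 23.1% at 1X but only 2.98 to 7.43% at 1.5X. All 16 hepatocyte markers were measured in each set but the last, while none of the 9 platelet markers could be tested with both one-colour inputs combined. All 38 genes were well above background on every one-colour 1X array, 36 on every one-colour 1.5X array, 35 on every two-colour 1X array used and 15 on every two-colour 1.5X array. None was saturated. The number of mice, 3 per group in every set, limits the precision, since all arrays hold the same 6 mice.

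The labels of the two-colour 1X set disagree with each other, which bears on every test in that set. Arrays 4 and 8 were left out because their fields give each exposure opposite dyes. On the other 6 arrays the dyes of the exposures agree, but the description field and the source name field give different mouse numbers on arrays 3, 5, 6 and 7. The description's numbers were used. Across 8253 genes, the deviation of each mouse from its group mean was correlated with the same mouse's deviation in the one-colour 1X set, which was hybridized on another slide. The correlation ranged from -0.10 to 0.59 with the description's numbers and from 0.26 to 0.67 with the source names. With the source names it was highest with the mouse's own number for 6 of 6 mice, and with the description's for 5. The group means are the same under both, and only the spread between mice differs, so calls in this set are given under both. Where a single reading by mouse, interval, overlap or p-value is given for this set, it is that of the description's mice.

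The upstream sequences of the fibrinogen chains and of C3 are shown first, because the values turn on whether these acute phase genes moved together. They are the 250 bases before the RefSeq start site in GRCm38.p6, 5′ to 3′ on the strand of the gene. Fga lies at chr3:83025903-83026152 on the plus strand, Fgb at chr3:83049864-83050113 on the minus strand, Fgg at chr3:83007474-83007723 on the plus strand and C3 at chr17:57228137-57228386 on the minus strand. Capitals mark matches, on either strand, to an HNF1 core site (GTTAAT), a C/EBP site (TTGCNNAAT), a STAT palindrome (TTCNNNGAA) or an interleukin 6 element (CTGGGAA). The last pair of motifs can overlap, and no matches overlapped in these sequences.
Fga: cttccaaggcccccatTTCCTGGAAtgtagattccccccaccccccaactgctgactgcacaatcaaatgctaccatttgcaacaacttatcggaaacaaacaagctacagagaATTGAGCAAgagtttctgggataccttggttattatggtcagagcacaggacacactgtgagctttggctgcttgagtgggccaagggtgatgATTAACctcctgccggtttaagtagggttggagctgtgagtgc
Fgb: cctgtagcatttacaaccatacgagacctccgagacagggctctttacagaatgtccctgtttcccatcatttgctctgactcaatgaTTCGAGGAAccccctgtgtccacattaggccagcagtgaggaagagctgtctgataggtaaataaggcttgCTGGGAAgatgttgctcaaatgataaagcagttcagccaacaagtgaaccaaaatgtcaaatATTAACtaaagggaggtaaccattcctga
Fgg: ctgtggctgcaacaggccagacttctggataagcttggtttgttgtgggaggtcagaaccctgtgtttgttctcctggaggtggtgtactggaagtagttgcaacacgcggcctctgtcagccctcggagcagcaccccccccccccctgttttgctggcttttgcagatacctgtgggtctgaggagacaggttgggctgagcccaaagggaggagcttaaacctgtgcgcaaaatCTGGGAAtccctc
C3: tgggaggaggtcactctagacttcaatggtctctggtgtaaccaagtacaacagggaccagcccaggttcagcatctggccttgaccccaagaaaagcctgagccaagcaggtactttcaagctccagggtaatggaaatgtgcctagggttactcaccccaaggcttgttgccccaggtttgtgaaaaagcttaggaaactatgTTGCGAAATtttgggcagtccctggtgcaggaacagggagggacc

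The 3 fibrinogen windows shared no single motif. The Fga window held an HNF1 core site, a C/EBP site and a STAT palindrome. The Fgb window held an HNF1 core site, a STAT palindrome and an interleukin 6 element, and in Fgg only the interleukin 6 element was found, at -13 to -7 from the start. C3 held the C/EBP site at -45 to -37. Among all 32851 windows of that length in the table, 6.43% held the HNF1 core site, 2.11% the C/EBP site, 7.02% the STAT palindrome and 9.10% the interleukin 6 element. Of the 38 genes, 29 had a window, and 8, 4, 6 and 4 of these held the same motifs in that order. The CAR direct repeat (AGGTCA, then AGNNCA after a gap of 4 bases), found in 0.149% of all windows, was in none of the 29. A match to these letters is a description of the window only.

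The medians of both cascades lay between -0.10 and 0.05 in every set. In the one-colour arrays no gene of either cascade passed: 0 of 38 at 1X, where 0.161% of all 18635 genes tested passed, 0 of 38 at 1.5X, where 0.237% of 13081 passed, and 0 of 38 over both inputs, where 0.750% of 12801 passed. At an unadjusted p under 0.05 the limma counts were 0 at 1X, 3 lower at 1.5X and 3 lower over both inputs, beside 8.59, 15.0 and 13.5% of all genes. The 3 over both inputs were Fgg, Proc and C2. The median change over both inputs was -0.07 for the 21 coagulation genes and -0.05 for the 17 complement genes, beside -0.02 for all genes tested. At 1X these medians were -0.10 and -0.04, beside 0.01, and at 1.5X -0.10 and -0.06, beside -0.02.

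The one-colour intervals bound what could have been missed. Over both inputs, the 95% interval of the change stayed within a 2-fold rise or fall for 35 of the 38 genes and within a 1.5-fold one for 23. The exceptions at 2-fold were F11, F13b and Pros1. Over both inputs the groups did not overlap for 0 genes higher and 5 lower (Fgg, Mbl1, C2, Cfb and C8g), beside 9.06% of all genes higher and 9.92% lower. At 1X alone these counts were 0 and 3, beside 7.45 and 6.61%, and at 1.5X 1 and 5, beside 9.22 and 11.6%. As a control on the exposure, all 6 phenobarbital response genes on the array rose over both inputs, with Cyp2b10, a CAR target, up by 6.21 (SE 0.23, adjusted p = 0.000127).

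At two-colour 1X, 3 of the 37 genes tested passed with the description's mice. C3 and Plg were higher and F11 was lower; F11 entered the test only through the controls, since it was mostly not well above background with phenobarbital. In that set 3.35% of all 8258 genes tested passed as higher and 2.91% as lower. The share of these genes that passed is near the 6.26% of all genes. With the source names' mice 0 of 37 passed, where 1.21% of all genes did. The median change was -0.06 for 20 coagulation genes and 0.01 for 17 complement genes, beside -0.01 for all genes. All 37 intervals lay within a 2-fold change and 32 within a 1.5-fold one. The 5 others were Fgg, Proc, Plg, Mbl1 and C3. All of these are intervals of the description's mice. With the source names' mice and every probe tested, the SE was 0.12 for C3 and 0.15 for Plg, larger than under the description. These intervals hold on the scale of this set, which was narrower for some genes. Cyp2b10 differed by 1.72 here and by 5.98 at one-colour 1X, and Cyp3a11 by 1.12 and 1.10. With the authors' log ratios F11 differed by -1.40, against -0.35 here, and C3 by 0.58, against 0.63. The groups did not overlap for 5 genes higher and 8 lower, beside 16.3 and 16.6% of all genes.

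In the two-colour 1.5X set only 15 of the 38 genes could be tested and 0 passed; 0% of all 1662 genes passed there, with 28 (1.68%) at an unadjusted p under 0.05 in limma and none of the 15 among them. The medians were -0.02 for 9 coagulation and 0.05 for 6 complement genes, beside 0.03 for all genes. C3 was the 1 gene of the 15 whose groups did not overlap, higher with phenobarbital, beside 2.11% of all genes. On arrays 7 and 8 of this set, where phenobarbital is labelled Cy5, the authors' log ratio of Cyp2b10 was -1.21 and -1.31 on the log2 scale, opposite in sign to its rise in every other set. These arrays stayed in the fit. Without them only mice 2 and 3 of each group keep both dyes; 0 of 22 genes passed, 0 had an unadjusted p under 0.05 in limma, and C3 differed by 0.20 with overlapping groups (an alternative added after seeing the data).

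**Figure D1:**
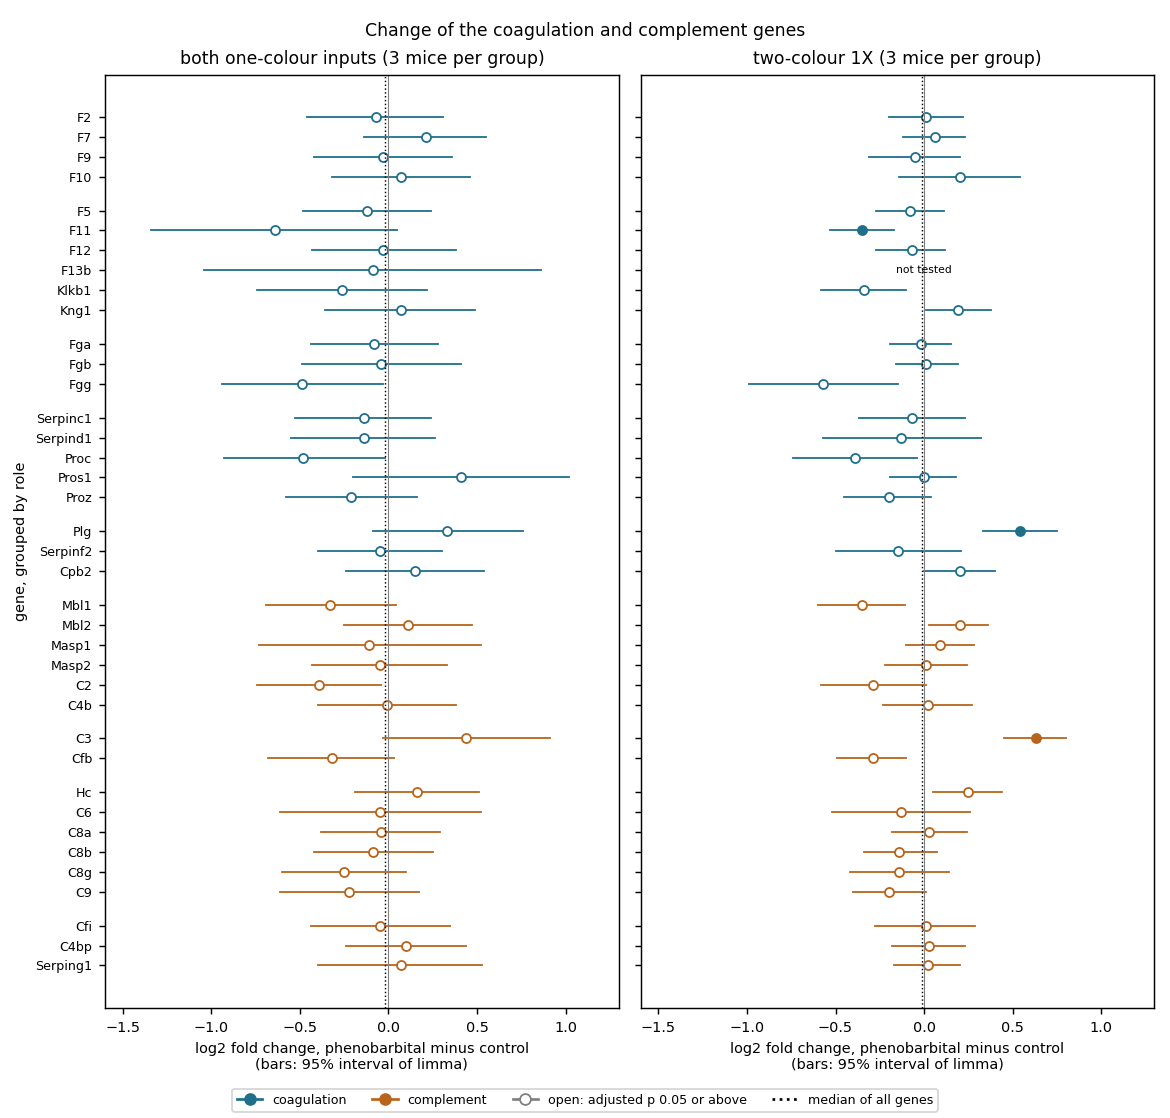
Change of each gene (y axis, grouped by role) in log2 units, phenobarbital minus control, over both one-colour inputs (left) and at two-colour 1X with the description's mice (right), n = 3 mice per group. Bars are limma's 95% intervals, filled points passed an adjusted p of 0.05 and the dotted line is the median of all genes; C3, Plg and F11 are the filled points, all on the right, and F11 was tested only because the controls were above background.

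C3, the protein at which the complement pathways meet, had the highest change of the complement genes in each one-colour set. Over both inputs, set against the control mean, the phenobarbital mice stood at 0.04, 0.73 and 0.56 and the controls at 0.07, -0.01 and -0.06. Mice 2 and 3 were above all controls and mouse 1 was not. The mean change was 0.44 (SE 0.20, adjusted p = 0.395). In the two-colour 1X set the description's phenobarbital mice stood at 0.60, 0.58 and 0.70, above all controls (-0.01, 0.08 and -0.07). There C3 passed, at 0.63 (SE 0.08, adjusted p = 0.00339), a 1.54-fold rise. Under the source names the same arrays gave 0.40, 0.79 and 0.70, still above all controls, and the adjusted p was 0.0534. C3 passed with any 1 mouse left out, and with the Cy3 channel alone its adjusted p was 0.0617. The other C3 probe differed in the same direction, by 0.38 over both one-colour inputs and by 0.30 at two-colour 1X, and did not pass (adjusted p = 0.409 and 0.169). At two-colour 1.5X C3 stood at 0.13, 0.23 and 0.29, against 0.12, 0.12 and -0.24 in the controls, a change of 0.22 (adjusted p = 0.999).

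Plg encodes plasminogen, the zymogen of plasmin. Over both one-colour inputs its phenobarbital mice stood at 0.06, 0.64 and 0.30 and its controls at 0.05, 0.07 and -0.12, so mouse 1 lay within the control range. The change was 0.33 (SE 0.18, adjusted p = 0.489). In the two-colour 1X set the description's mice stood at 0.54, 0.41 and 0.68, all above the controls at 0.08, -0.06 and -0.02. Plg passed there, at 0.54 (SE 0.09, adjusted p = 0.0113). With the source names' mice it stood at 0.21, 0.73 and 0.68 and the adjusted p was 0.158. The call was also lost with Cy3 alone (0.135) and without control mouse 2 (0.0564), control mouse 3 (0.0584) or phenobarbital mouse 1 (0.0509), all adjusted p. The other genes of fibrinolysis did not pass: Serpinf2, which encodes the main plasmin inhibitor, differed by -0.05 over both one-colour inputs and -0.15 at two-colour 1X, and Cpb2, whose carboxypeptidase slows clot lysis, by 0.15 and 0.20.

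F11 encodes factor XI, which activates factor IX. Over both one-colour inputs its phenobarbital mice stood at -0.04, -1.22 and -0.67 and its controls at -0.29, 0.18 and 0.11. Mouse 1 lay among the controls, and the change of -0.64 (SE 0.30) did not pass (adjusted p = 0.407). At one-colour 1.5X the value of mouse 2 was -1.72, and F11 was well above background on 66.7% of the phenobarbital arrays there. In the two-colour 1X set the description's mice stood at -0.37, -0.26 and -0.42, below all controls (-0.07, 0.00 and 0.07), and F11 passed at -0.35 (SE 0.08, adjusted p = 0.0376). It was well above background in 6 of 6 control channels and in 2 of 6 phenobarbital channels, so it was tested only through the group where it is high, and its size and p are not those of a value measured in both groups. The call was lost under the source names (adjusted p = 0.228) and with any 1 of the 6 mice left out (0.0522 to 0.145).

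**Figure D2:**
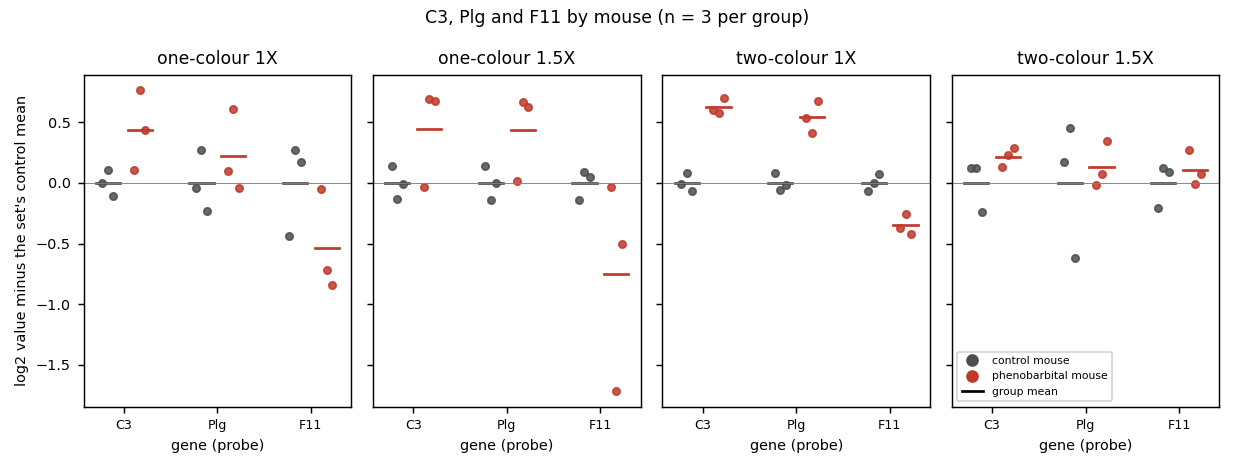
Log2 value of C3, Plg and F11 minus the control mean of the set (y axis) for each control mouse (grey) and phenobarbital mouse (red) in the 4 sets, two-colour 1X with the description's mice; lines are group means, n = 3 per group. Groups of all 3 genes are apart in the two-colour 1X panel, where F11 was mostly not above background with phenobarbital, while 1 phenobarbital mouse lies among the controls in each one-colour panel for F11.

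Beside these genes, the acute phase list varied by mouse. Over both one-colour inputs the median of 21 acute phase genes stood at 0.17, 1.01 and 0.70 in phenobarbital mice 1, 2 and 3 and at 0.23, -0.24 and 0.00 in the controls. Phenobarbital mouse 1 was the lowest of its group there and also for C3 and Plg. At two-colour 1X this order depended on the mouse labels. With the source names mouse 1 was again the lowest for the acute phase median (0.35, 0.86 and 0.40), C3 and Plg. With the description's numbers it was not the lowest for the median (0.59, 0.57 and 0.40), C3 or Plg. At two-colour 1X, 9 of 20 acute phase genes passed as higher and 1 as lower with the description's mice, beside 3.35 and 2.91% of all genes, with a median of 0.50. The list was chosen with earlier results of these data known, so these counts are no test of it. With the source names' mice 3 passed as higher and 1 as lower, beside 1.21% of all genes in either direction. Lcn2, an iron-binding lipocalin, was higher under both, by 2.69 (adjusted p = 5.82e-05 and 0.0260). Saa1, a serum amyloid, at 2.21, passed with the description's mice (adjusted p = 0.00313) and not with the source names' (0.186). Cebpb, a C/EBP factor of the acute phase response, was in a separate list of interleukin 6 signalling genes. At 0.47 it passed with the description's mice (adjusted p = 0.0192) and not with the source names' (0.300). The other genes of that list tested there had negative values and did not pass: Stat3 -0.35, Il6ra -0.27, Jak1 -0.11 and Socs3 -0.03. S100a9, the 1 neutrophil marker measured of 7 on the array, differed by 2.08 over both one-colour inputs (adjusted p = 0.232). Its log2 levels were -4.46, -5.94 and -4.41 in the controls and -3.59, -1.43 and -3.55 with phenobarbital. The control levels lay below those of F11 (-2.54, -2.06 and -2.14), so the size of this difference rests on dim values. The part of these acute phase and neutrophil genes in the values of C3 and Plg was not tested.

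The fibrinogen chains did not give 1 common value. Fgg had a negative value in each set, without passing, while the main probes of Fga and Fgb differed by -0.16 to 0.03 in every set but two-colour 1.5X. Fgg stood at -0.55, -0.14 and -0.70 against the control mean at one-colour 1X and at -0.45, -0.19 and -0.89 at 1.5X, with the controls between -0.17 and 0.16. At two-colour 1X it stood at -0.27, -0.46 and -0.98, with the controls at 0.23, -0.16 and -0.07. In these 3 sets every phenobarbital mouse lay below every control. The change was -0.49 over both one-colour inputs (SE 0.19, adjusted p = 0.342) and -0.57 in the two-colour 1X set (SE 0.18, adjusted p = 0.108). With the source names' mice the adjusted p in the two-colour 1X set was 0.237. At two-colour 1.5X the groups overlapped and the change was -0.28 (adjusted p = 0.999).

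Fga over both one-colour inputs stood at -0.27, 0.14 and -0.12 in the phenobarbital mice, with all controls within 0.01 of their mean. Its change was -0.08 (95% interval -0.44 to 0.28). Fgb stood at -0.39, 0.29 and -0.01, a change of -0.04 (interval -0.49 to 0.41). At two-colour 1X the changes were -0.02 (interval -0.19 to 0.15) for Fga and 0.01 (interval -0.16 to 0.19) for Fgb, with the description's mice. With the source names' mice and every probe tested, the SEs were 0.10 for Fga and 0.15 for Fgb. At two-colour 1.5X the intervals were wider, -1.03 to 0.55 for Fga and -0.93 to 0.17 for Fgb.

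Within each mouse, Fgg was set against the other chains, and the exposure groups were compared with an exact two-sided permutation test, in which 3 against 3 mice cannot go below 0.1. The change of Fgg minus Fga was -0.30 at one-colour 1X, -0.51 at 1.5X, -0.40 over both and -0.55 at two-colour 1X. Each of these gave an exact p of 0.1, and at two-colour 1.5X it was -0.04 (exact p = 0.700). For the former, the values adjusted over the 3 pairs of a set ran from 0.150 to 0.300. Fgg minus Fgb differed by -0.36 at one-colour 1X and -0.54 at 1.5X (exact p = 0.200 each), by -0.45 over both and -0.58 at two-colour 1X (exact p of 0.1 each), and by 0.10, in the other direction, at two-colour 1.5X (exact p = 0.800). Fgb minus Fga differed by 0.05 over both one-colour inputs and 0.03 at two-colour 1X (exact p = 0.600 and 0.800).

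The contrast between Fgg and Fga depended on the Fga probe. A second probe, named by the same transcript, stood at -0.58, -0.87 and -1.00 over both one-colour inputs, below all controls (0.27, -0.21 and -0.06). At two-colour 1X it stood at -0.47, -0.59 and -0.51, again below all controls. Its change was -0.81 over both one-colour inputs (SE 0.19, adjusted p = 0.121) and -0.52 in the two-colour 1X set (SE 0.12), where it passed with every probe tested (adjusted p = 0.0423, 10043 probes) with the description's mice and not with the source names' (adjusted p = 0.162). With this probe the change of Fgg minus Fga was 0.33 over both one-colour inputs and -0.05 at two-colour 1X (exact p = 0.200 and 1.00). The second Fga probe was far dimmer. Over both one-colour inputs its log2 levels in the controls were 0.43, -0.05 and 0.11, against 6.03, 6.01 and 6.00 for the main probe. Which of the Fga probes follows the whole transcript was not tested.

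**Figure D3:**
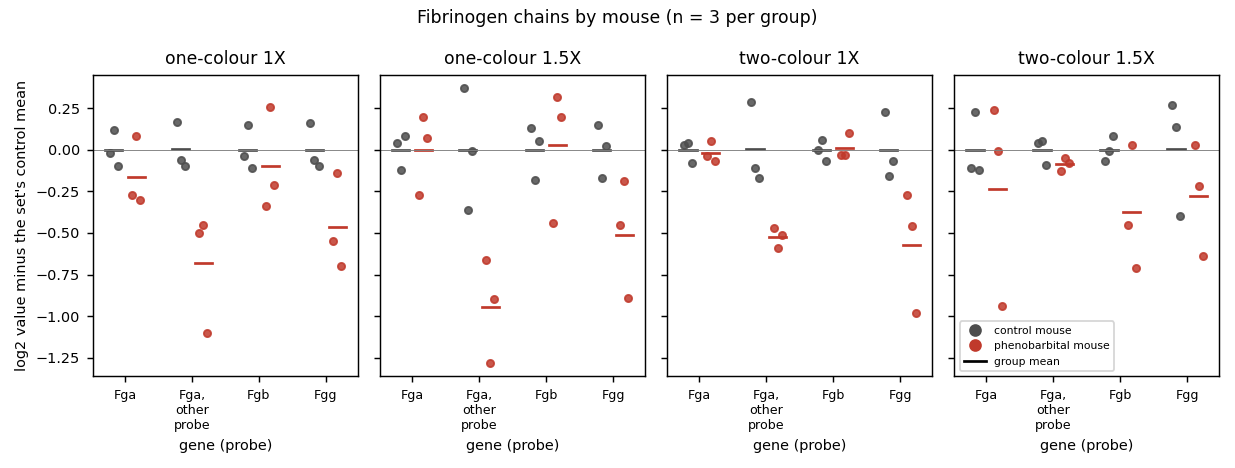
Log2 value of the fibrinogen chains minus the control mean of the set (y axis) for each control mouse (grey) and phenobarbital mouse (red) in the 4 sets, with both Fga probes; lines are group means, n = 3 per group. Fgg and the other Fga probe lie below all controls in the 3 left panels, and the main Fga probe and Fgb do not.

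The vitamin K-dependent procoagulant factors, which need gamma-carboxylation to bind calcium and membranes, did not pass in any set. F2 (prothrombin) differed by -0.07 over both one-colour inputs and 0.01 at two-colour 1X, F9 by -0.03 and -0.05, and F10 by 0.07 and 0.20. F7, which starts clotting together with tissue factor, was among the 5 highest over both one-colour inputs at 0.21 (SE 0.15, adjusted p = 0.598). Its phenobarbital mice stood at 0.22, 0.32 and 0.09 and its controls at 0.11, 0.05 and -0.16, so the groups overlapped, and at two-colour 1X the change was 0.06. Of the 8 vitamin K cycle genes, 0 passed over both one-colour inputs, with a median of 0.14 beside -0.02 for all genes. At an unadjusted p under 0.05 in limma 2 were higher, beside 13.5% of all genes in either direction. Ggcx, the gamma-carboxylase itself, differed by 0.52 (adjusted p = 0.237) there and by 0.17 (adjusted p = 0.253) at two-colour 1X.

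Among the cofactor, contact phase and crosslinking genes other than F11, 0 passed. Klkb1, which encodes plasma prekallikrein, differed by -0.26 over both one-colour inputs and by -0.34 at two-colour 1X, where its groups did not overlap (adjusted p = 0.104). With the source names' mice and every probe tested, its adjusted p at two-colour 1X was 0.391. F5, the cofactor of factor Xa, differed by -0.12 and -0.08, and F12 by -0.03 and -0.07. F13b, the carrier subunit of the crosslinking factor XIII, differed by -0.09 with an interval of -1.04 to 0.86 and was too dim to test at two-colour 1X. Kng1, which encodes kininogen, differed by 0.07 and 0.19 on its main probe. A second Kng1 probe, named by another transcript, differed by -0.64 (adjusted p = 0.257) and -0.53, and at two-colour 1X it passed with every probe tested under the description's mice (adjusted p = 0.0290) and not under the source names' (adjusted p = 0.200). This probe was dimmer, at log2 levels of 2.34, 2.42 and 1.79 in the controls over both one-colour inputs, against 6.13, 6.03 and 5.91.

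With every probe tested in the two-colour 1X set, 5 of the 47 probes of these genes tested passed with the description's mice, 2 higher and 3 lower, beside 6.42% of all probes. With the source names' mice 1 of the 47 passed, the main probe of C3 (adjusted p = 0.0498), beside 1.21% of all probes. Of the 10 other probes tested there, 5 had the sign of the main probe, against 9 of 11 over both one-colour inputs. The widest gap between probes was 0.73 for Fga over both one-colour inputs and 0.72 for Kng1 at two-colour 1X.

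Of the anticoagulants, 0 of 5 passed, and 4 of the 5 had a negative value over both one-colour inputs. Proc, whose product protein C inactivates factors Va and VIIIa, stood at -0.26, -0.41 and -0.76 there and its controls at 0.18, 0.10 and -0.28. Phenobarbital mouse 1 overlapped the lowest control, and the change was -0.48 (SE 0.20, adjusted p = 0.353). At two-colour 1X Proc stood at -0.15, -0.25 and -0.76, below all controls, at -0.39 (adjusted p = 0.166). Pros1, the cofactor of protein C, went the other way in the one-colour sets, at 0.14, 0.61 and 0.48 against 0.12, 0.42 and -0.54. Its change of 0.41 had an interval of -0.20 to 1.02, and at two-colour 1X the change was 0.00. Like F11, Pros1 was tested at two-colour 1X only through the controls, since it was not well above background in every phenobarbital channel. Serpinc1 (antithrombin) differed by -0.14 and -0.07, Serpind1 (heparin cofactor II) by -0.14 and -0.13, and Proz by -0.21 and -0.20.

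In complement, C2 and Mbl1 of the initiating steps had the lowest values over both one-colour inputs. C2, the protease of the classical and lectin C3 convertase, stood at -0.36, -0.38 and -0.44 over both one-colour inputs, below all controls (0.22, -0.12 and -0.10). Its change was -0.39 (SE 0.15, adjusted p = 0.325), and -0.29 at two-colour 1X (adjusted p = 0.215), again without overlap. Mbl1, a mannose-binding lectin, stood at -0.36, -0.17 and -0.45, below all controls (0.19, -0.07 and -0.12), at -0.33 (adjusted p = 0.427). At two-colour 1X it differed by -0.35, also without overlap with the description's mice. The adjusted p was 0.0957 with the description's mice and 0.298 with the source names'. Mbl2, the other mannose-binding lectin, had the opposite sign, 0.11 and 0.20 (adjusted p = 0.799 and 0.142), and its groups did not overlap at two-colour 1X. With the source names' mice and every probe tested, its adjusted p there was 0.450. The difference between these lectins was not tested. C4b differed by -0.01 and 0.02, Masp1 by -0.11 and 0.09, and Masp2 by -0.05 and 0.01.

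Cfb, the protease of the alternative C3 convertase, had the opposite sign to C3 in each one-colour set and at two-colour 1X. It differed by -0.32 over both one-colour inputs (adjusted p = 0.413) and by -0.29 at two-colour 1X (adjusted p = 0.0827), and in both every phenobarbital mouse lay below every control. With the source names' mice and every probe tested, its adjusted p at two-colour 1X was 0.295. Of the 6 terminal pathway genes 0 passed. Hc, which encodes complement C5, was the only one of them with a positive value over both one-colour inputs, standing at -0.04, 0.24 and 0.29 against 0.07, -0.05 and -0.02 in the controls. Its change was 0.16 (adjusted p = 0.689), and 0.25 at two-colour 1X without overlap (adjusted p = 0.125). The source names' mice gave an adjusted p of 0.417 at two-colour 1X with every probe tested. C6, C8a, C8b, C8g and C9, which form the membrane attack complex, ran from -0.25 to -0.04 over both one-colour inputs. The soluble regulators Cfi, C4bp and Serping1 ran from -0.05 to 0.10 there and from 0.01 to 0.03 at two-colour 1X on their main probes. A second Serping1 probe stood at -0.21, -0.28 and -0.66 over both one-colour inputs, below all controls (0.16, -0.15 and -0.01). At two-colour 1X it differed by -0.35, again below all controls. A second C8a probe differed there by -0.25, against 0.03 for the main probe, with overlapping groups. Neither of these probes passed.

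Genes of both systems outside the 38 were counted too. Of the other coagulation and fibrinolysis genes, 0 of 12 tested passed over both one-colour inputs, with a median of -0.07 and 1 lower at an unadjusted p under 0.05 in limma. That gene was Thbd, which encodes endothelial thrombomodulin, at -0.71 (adjusted p = 0.121). Of the other complement genes 0 of 18 passed there, with a median of -0.12 and 1 higher at an unadjusted p under 0.05, C3ar1, the receptor of C3a, at 0.68 (adjusted p = 0.235). At two-colour 1X, 0 of 8 and 0 of 13 passed in limma, with 3 and 4 at an unadjusted p under 0.05, beside 2039 of all 8258 genes. Over both one-colour inputs 13.5% of all genes had an unadjusted p under 0.05.

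Markers of cell types were read beside both cascades. The median of 16 hepatocyte markers stood at -0.22, 0.05 and -0.06 in the phenobarbital mice over both one-colour inputs and at 0.04, 0.12 and -0.18 in the controls. At two-colour 1X it stood at -0.09, -0.09 and -0.23 against 0.01, 0.02 and -0.03, and Ttr (transthyretin) and Alb (albumin) were at -0.62 and -0.39. These 2 of 16 markers passed as lower with the description's mice (adjusted p = 0.00785 and 0.0213), beside 2.91% of all genes. With the source names' mice 0 passed in limma (adjusted p = 0.111 and 0.137), beside 1.21% of all genes, with 4 at an unadjusted p under 0.05. The other hepatocyte markers ran from -0.48 (Apoh) to 0.27 (Trf) at two-colour 1X and did not pass. The median of 8 macrophage markers stood at 0.02, 0.56 and 0.05 in the phenobarbital mice over both one-colour inputs and at -0.02, -0.11 and 0.13 in the controls, and their log2 summed level ran from 2.23 to 2.51 in the controls and from 2.51 to 2.96 with phenobarbital. Of these, Mpeg1, a macrophage pore-forming protein, passed as higher there (0.95, adjusted p = 0.0455) and at two-colour 1X with the description's mice (0.52, adjusted p = 0.0161), but not with the source names' (0.0845). Of all genes 0.750% passed over both one-colour inputs and 3.35% as higher at two-colour 1X. The other macrophage markers did not pass. They ran from -0.35 (C1qc) to 0.40 (C1qb) over both one-colour inputs and from -0.03 (Cd5l) to 0.26 (C1qb) at two-colour 1X. Pancreas transcripts were present in these blocks: the log2 summed level of 11 pancreas genes ran from 6.73 to 8.87 in the controls and from 6.19 to 8.82 with phenobarbital over both one-colour inputs. Their median was low in control mouse 1 and in phenobarbital mice 1 and 2 and high in the other 3 mice in both the one-colour sets and the two-colour 1X set. Of the endothelial, stellate, bile duct, red cell and lymphocyte markers 0 passed. Their list medians ran from -0.21 to 0.35 over both one-colour inputs and from -0.11 to 0.47 at two-colour 1X. The 0.47 is the value of Gzma, the 1 lymphocyte marker measured there. In the order named, the lists held 8, 6, 3, 4 and 3 measured markers over both one-colour inputs. At two-colour 1X they held 5, 5, 2, 4 and 1. At an unadjusted p under 0.05 in limma there were 1 and 5 markers, beside 13.5% of all genes and 2039 of all 8258 genes. In whole liver, fewer cells of a type and less RNA per cell cannot be told apart, and the part of these lists in the values above was not tested.

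**Figure D4:**
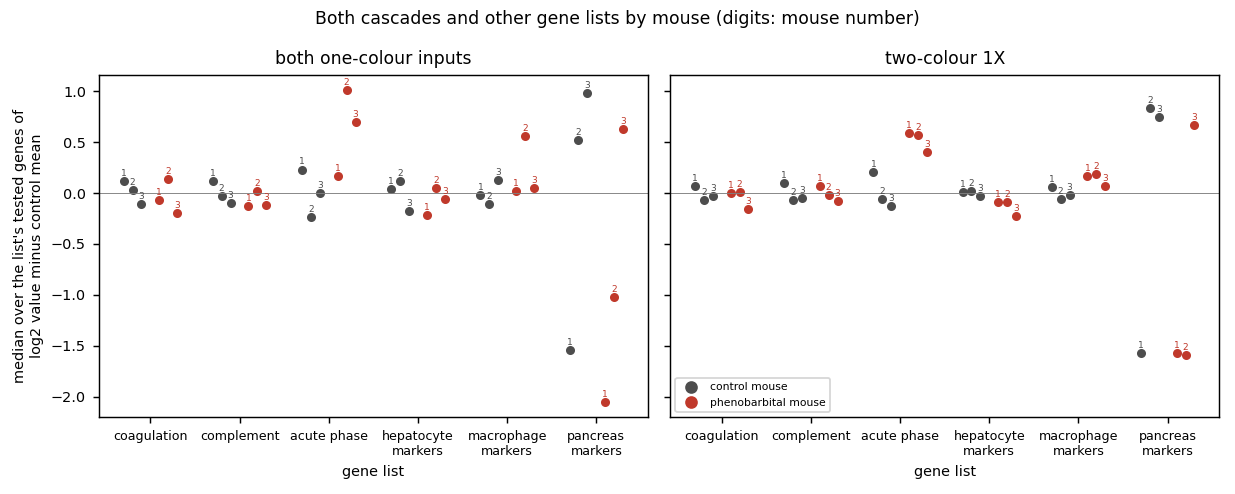
Median over the tested genes of each list (x axis) of the log2 value minus the control mean (y axis), 1 point per mouse with its number, over both one-colour inputs (left) and at two-colour 1X with the description's mice (right). Both cascades stay between -0.20 and 0.14 in every mouse, acute phase genes reach 1.01 in phenobarbital mouse 2, and pancreas markers split the mice across both groups.

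The effect of phenobarbital was compared between sets in a pair of tests; the two-colour 1.5X set was compared with no other. The change at 1.5X minus that at 1X in the one-colour arrays, tested within mice with limma, passed for 0 of 38, where 0% of 12801 genes passed; 0 of the 38 had an unadjusted p under 0.05, beside 5.66% of all genes. The change in two-colour minus that in one-colour arrays at 1X passed for 0 of 37, where 0.0242% of 8252 genes passed, again with 0 at an unadjusted p under 0.05, beside 4.80% of all genes. F13b was not tested there. Mice were paired across formats by the description's numbers, which the source names contradict on some arrays. The SEs and p-values of that comparison depend on the pairing and are given only under the description. For C3 this last difference was 0.19 (SE 0.20), for Plg 0.32 (SE 0.26) and for F11 0.19 (SE 0.26). For Pros1 it was -0.64 (SE 0.32, adjusted p = 0.998). F11 and Pros1 were not well above background in every phenobarbital channel at two-colour 1X, so their differences rest partly on dim values.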

How the data were processed

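Whole liver cDNA of 6 mice was measured on 28 Agilent arrays. Per the file headers, the authors extracted each array with Feature Extraction. The deposited tables hold an intensity per spot (processed and median signals), flags of 0 or 1 (unit: other) and, for two-colour arrays, log10 ratios of Cy5 over Cy3. The authors' series matrix held the same values in size on every array, with the sign of the log10 ratio turned on some two-colour arrays, and was not used in a test. Aligner and build do not apply to arrays. Signal over background replaces depth.

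One-colour processed signals were put on a log2 scale and shifted by the 75th percentile of each array, taken over probes that were well above background on every array of that set. In the two-colour sets, median signals went through normexp (offset 50), loess (span 0.3) and Aquantile, and were averaged over both dyes to 1 value per mouse. Tested genes had a probe well above background on every array of 1 or both groups. Groups of 3 mice were compared with limma 3.58.1 (lmFit, eBayes, Benjamini-Hochberg) in R 4.3.3. Arrays 4 and 8 of the two-colour 1X set were left out. The fits were tested on simulated data. Figures used matplotlib 3.10.9.

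The members and lists were chosen with earlier results of these data known. Values by mouse are given for the fibrinogen chains, for genes that passed in a comparison and for the 5 highest and 5 lowest over both one-colour inputs. Gene names and upstream sequences came from RefSeq tables (GRCm38.p6), sequences for 29 of 38 genes. Alternatives were another background correction and scaling, 1 channel, the authors' ratios, the other mouse labels, slide row, no filter, every probe, a replicate block, each mouse left out and, at two-colour 1.5X, arrays 7 and 8 left out.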

Additional observations from a re-analysis of the deposited data

How the results depend on the processing

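In the one-colour sets and at two-colour 1.5X, 0 genes of both cascades passed under each alternative run. At two-colour 1X the count of 3 was 0 with the Cy3 channel alone and 0 with mice by source name, 2 with loess only and 4 with the authors' log ratios, where Mbl1 passed at -0.46 (adjusted p = 0.0439). Leaving out 1 mouse gave 1 to 2, and the count was 1 without control mouse 2, control mouse 3 or phenobarbital mouse 1. C3 passed without each mouse, Plg did not without those 3 (adjusted p from 0.0509 to 0.0584), and F11 did not whichever mouse was left out (0.0522 to 0.145). Counts over all genes moved more: from 30 at one-colour 1X to 3 with the replicate block, from 31 at 1.5X to 4 with the block and 158 with normexp and quantile normalization, from 96 over both to 16 without phenobarbital mouse 2 and 146 with normexp, from 517 at two-colour 1X to 100 by source name and 689 with the block, and from 0 at two-colour 1.5X to 15 with Cy3 alone. The number of the mouse does not pair the samples: deviations of same-numbered mice correlated at -0.12 to 0.28 over both one-colour inputs and at -0.03 to 0.38 at two-colour 1X. With the replicate block the two-colour 1X count was 4, with Fgg added (adjusted p = 0.0315), and the other counts stayed 0.

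Without scaling between arrays the median of all genes moved to -0.28 at one-colour 1X, -0.16 at 1.5X and -0.23 over both, and the cascade medians with it: coagulation to -0.39, -0.23 and -0.29, complement to -0.33, -0.19 and -0.26. Signs then turned for Plg (-0.07), F7 (-0.03) and Hc (-0.16) at 1X, Fgb (-0.11) at 1.5X, and F7 (-0.01) and Hc (-0.05) over both. Values near 0 turned sign elsewhere: at one-colour 1.5X, Fga was 0.06 and Fgb -0.06 with normexp and quantile normalization, and Fga 0.03 with the percentile over all probes. At two-colour 1X, Pros1 was 0.21 with Cy3 alone and 0.07 with the authors' ratios, and Fgb -0.04 with the latter. At two-colour 1.5X the complement median was 0.01 with Cy3 alone and -0.06 with no filter. Without arrays 7 and 8 of that set, an alternative added after seeing the data, the coagulation median was -0.10 and the complement median 0.13.

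With 1 mouse left out, signs turned within these ranges: Fga -0.19 to 0.01 over both one-colour inputs, -0.10 to 0.13 at 1.5X, -0.06 to 0.01 at two-colour 1X and -0.47 to 0.11 at two-colour 1.5X; Fgb -0.28 to 0.03 at one-colour 1X, -0.12 to 0.26 at 1.5X, -0.20 to 0.14 over both and -0.03 to 0.05 at two-colour 1X; Pros1 -0.08 to 0.40 at one-colour 1.5X and -0.06 to 0.04 at two-colour 1X; Plg -0.18 to 0.36 at two-colour 1.5X. The complement median ran from -0.06 to 0.07 at two-colour 1X and from -0.04 to 0.12 at 1.5X, and the coagulation median from -0.20 to 0.01 at two-colour 1.5X. Fgb minus Fga ran from -0.02 to 0.12 at one-colour 1.5X, -0.01 to 0.13 over both, -0.03 to 0.09 at two-colour 1X and -0.32 to 0.13 at two-colour 1.5X, where Fgg minus Fga ran from -0.21 to 0.14 and Fgg minus Fgb from -0.15 to 0.27. With the other Fga probe, chosen after seeing the data, Fgg minus Fga was 0.22 at one-colour 1X, 0.43 at 1.5X and 0.33 over both. Leaving out mice for the chain differences was also added then. The cause of these changes was not tested.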

Other observations

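The 2 arrays left out of the two-colour 1X set were not used in any test. Their log2 ratios of Cy5 over Cy3, as the authors deposited them, were 0.53 on array 4 and -0.34 on array 8 for C3, 0.51 and -0.24 for Plg, -2.05 and 0.65 for F11, -0.35 and 0.47 for Fgg, and 3.68 and -2.76 for Cyp2b10.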
